A study of Mus musculus with 6 samples.

Results

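The genes described here are 34 mouse genes of sterol and fatty acid synthesis, of their shared transcriptional control and of sterol transport. They were chosen by name among the 41128 features listed for each library. These genes, the further lipid genes and the markers below were chosen with earlier results of these data known. Their shares of called genes are therefore a description and no independent test. The 34 genes were followed in poly(A) RNA of lenses at E15.5. There were 3 libraries from lenses with a conditional knockout (cKO) of the β1-integrin gene Itgb1 and 3 from wild-type lenses. The cKO embryos were homozygous for a floxed Itgb1 allele (beta1 Flox/Flox) and carried MLR10 Cre, a transgene driven by a modified αA-crystallin promoter that is active in lens epithelial and fiber cells. Their strain background was mixed, and each library came from a pool of 30 lenses. The wild-type embryos are labelled C57Bl/6, with 75 lenses per pool, and their libraries are duplicate records from an earlier deposit. Itgb1 genotype, Cre, strain, pool size and deposit thus coincide with the groups, so their parts in any difference cannot be told apart.

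Cholesterol is built from acetyl-CoA through mevalonate, the isoprenoid pyrophosphates and squalene, and then through a series of sterol intermediates. Fatty acids are built from the same acetyl-CoA by acetyl-CoA carboxylase and fatty acid synthase, and are then elongated and desaturated. The transcription factors SREBP, made by Srebf1 and Srebf2, switch on both sets of genes when membrane sterol is low: SCAP escorts them out of the endoplasmic reticulum and the INSIG proteins hold them there. Liver X receptors, active when oxysterols are high, raise the efflux transporters Abca1 and Abcg1, and they are also known to activate Srebf1 and fatty acid genes such as Fasn and Scd1. Lens fiber cells elongate greatly and make large amounts of membrane that is unusually rich in cholesterol, and inherited defects of the sterol enzymes LSS and DHCR7 are known to be accompanied by cataract.

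All 34 genes passed the filter on low values (1 CPM or more in 3 or more libraries, where CPM is the read count of a gene scaled to the library total), and the lowest value of any of them in any library was 4.59 CPM. In cKO lenses 23 of the 34 were lower and 2 were higher (adjusted p under 0.05 by limma), and 9 did not pass the test. Over all 11941 genes tested, 15.9% were lower and 20.9% were higher, or 36.9% in either direction. With edgeR on recovered reads 24 of the 34 were lower and 2 higher, against 20.0% and 19.9% of all tested genes. The 34 genes had a median log2 fold change of -0.35, against 0.03 over all tested genes. The groups did not overlap for 24 of the 34 with cKO below wild type and for 2 with cKO above, against 21.2% and 26.9% of all tested genes (48.1% in either direction). None of the changes reached 2-fold, against 2.46% of all tested genes called with at least that change: the 23 lower genes had mean CPM values 14.5% to 38.0% below wild type, with a median of 29.2%. At mean levels of 10 CPM or more, 20 of 30 of these genes were lower and 1 was higher, against 18.6% and 20.9% of the 8041 tested genes of that level. Because the 34 genes were chosen with earlier results of these data known, their excess over all tested genes is no independent test. In pooled whole lenses, fewer cells of a type and less RNA per cell cannot be told apart.

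**Figure D1:**
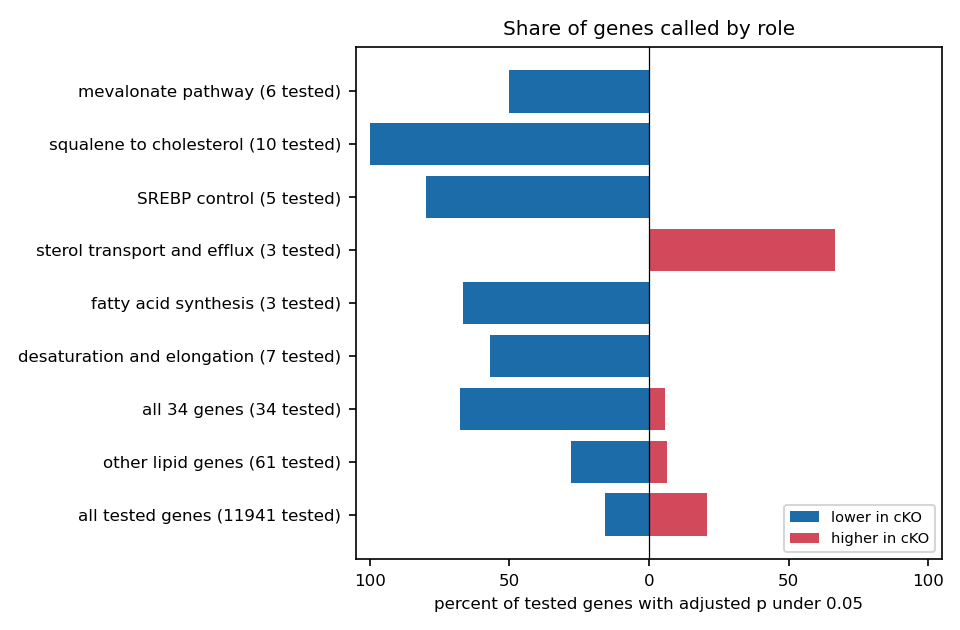
Share of tested genes with an adjusted p under 0.05 that were lower (left, blue) or higher (right, red) in cKO, in percent, for each role, for the 34 genes together, for 61 other lipid genes and for all 11941 tested genes. All 10 genes from squalene to cholesterol lie on the lower side, while the transport and efflux genes have 2 of 3 on the higher side.

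Counted reads ranged from 20036554 to 28095318 per cKO library and from 10023049 to 11531139 per wild-type library, and each of the 34 genes had at least 54 reads in each library. Itgb1 itself stood at 236, 275 and 262 CPM in cKO and at 402, 424 and 448 CPM in wild type (log2 fold change -0.72, adjusted p = 1.63e-05). Its mean was 39.3% below wild type, so much of the Itgb1 RNA remained by this measure, which counts the whole gene and does not separate the floxed part. The 10 lens markers summed to between 172141 and 192986 CPM in cKO and between 185202 and 197732 CPM in wild type. Cryaa, the αA-crystallin gene, made up most of that sum, with means of 132558 and 140102 CPM, and the ranges of the sum overlap. By gene, 9 of the 10 lens markers had a negative log2 fold change (median -0.13) and 3 were called lower, Mip (-0.21), Gja3 (-0.34) and Foxe3 (-0.37), against 15.9% of all tested genes. The part of this shift in the values of the lipid genes was not tested.

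In the mevalonate pathway 3 of 6 genes fell (Mvk, Mvd and Fdps) and 0 rose, against 15.9% and 20.9% of all tested genes. Mvk (chromosome 5, 114444269 to 114460591, plus strand), which encodes mevalonate kinase, was at 16.3, 19.1 and 15.9 CPM in cKO and 23.8, 26.3 and 24.2 CPM in wild type. All 3 cKO libraries lay below all 3 wild-type libraries. The log2 fold change of Mvk was -0.51 (SE 0.0965, adjusted p = 0.00124). Mvd (chromosome 8, 122433601 to 122443422, minus strand), the decarboxylase that makes isopentenyl pyrophosphate, was at 6.49, 6.43 and 6.23 CPM in cKO and 10.8, 10.6 and 9.18 CPM in wild type. The log2 fold change of Mvd was -0.60 (SE 0.111, adjusted p = 0.00117), a mean CPM 37.3% below wild type. Fdps, which joins the isoprenoid units into farnesyl pyrophosphate, had a mean of 35.9 ± 3.20 CPM in wild type and 29.2 ± 0.704 CPM in cKO (SD, n = 3 each), a log2 fold change of -0.29 (limma adjusted p = 0.0197).

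The first of these 6 genes in pathway order was not among the lower genes. Hmgcs1 (chromosome 13, 119690379 to 119708260, plus strand), which encodes cytosolic HMG-CoA synthase, was at 286, 297 and 277 CPM in cKO and 268, 281 and 294 CPM in wild type. The groups overlapped, the log2 fold change was 0.03 and its 95% interval, from limma and not adjusted for the number of genes, ran from -0.12 to 0.18. Idi1, the isomerase of the isoprenoid units, was at -0.06 (interval -0.22 to 0.09) and Pmvk, which encodes phosphomevalonate kinase, was at 0.09 (interval -0.14 to 0.32). The summed CPM of the 6 genes was 442 to 473 in cKO and 453 to 481 in wild type, and is mostly that of Hmgcs1. Fdps did not pass without cKO replicate 3 (-0.30, adjusted p = 0.0546), wild-type replicate 1 (-0.26, adjusted p = 0.0579) or wild-type replicate 2 (-0.24, adjusted p = 0.0951), and Idi1 was called lower after correction for GC content and length (-0.24, adjusted p = 0.0156). Of the 32-base words of their transcripts, 27.9% in Fdps, 26.9% in Idi1 and 13.0% in Hmgcs1 also occur in other annotated genes. The largest partners are a processed pseudogene for Idi1, an antisense gene for Hmgcs1 and a further protein-coding model, Gm43738, for Fdps.

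Promoter sequence was compared because many of these genes were lower and SREBP is known to act beside the factor NF-Y, which binds CCAAT. RefSeq promoter windows (GRCm38.p6) matched 26 of the 34 genes, and the 250 bases before each start were searched on both strands. CCAAT occurred in 15 of the 18 matched genes that were lower and in 20 of all 26 matched genes. The share was 37.5% of the 27025 genes with such a window and 40.9% of the 9025 that were also tested. The 34 genes were chosen as genes of these pathways, so this comparison cannot tie the box to their fall, and such a link was not tested. Genes with several starts were counted if any window held the motif, and by window the shares were 60.0% of the 35 windows of these genes and 33.8% of all windows. The GC box GGGCGG was in 17 of the 18 lower genes, against 66.0% of tested genes, and the E-box CACGTG in 5 of the 18, against 10.1%. The core of the sterol regulatory element, spelled TCACNCCAC, occurred in 1 of the 26, Hmgcs1, against 1.22% of all genes, and no conclusion about SREBP follows from its absence from the other windows. At least 2 CCAAT boxes in 1 window were held by 11 of the 26 matched genes. Among these were Hmgcs1, Idi1, Insig2 and Elovl5, which did not pass the test, so several boxes are no trait of the lower genes alone. Below are the stretches of the lower genes with at least 2 CCAAT boxes in a window, leaving out 3 that run into annotated exons. That of Hmgcs1, the gene with the sterol element, which did not pass the test, is also given. Each is written on the gene's strand from 10 bases before the first to 10 bases after the last marked site, or to the end of the window. Capitals mark CCAAT or its reverse complement ATTGG and, in Hmgcs1, also the sterol element core.
Mvk: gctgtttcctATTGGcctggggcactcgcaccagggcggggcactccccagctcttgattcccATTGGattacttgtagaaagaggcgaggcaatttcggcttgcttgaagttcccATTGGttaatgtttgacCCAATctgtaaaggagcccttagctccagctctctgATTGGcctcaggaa
Mvd: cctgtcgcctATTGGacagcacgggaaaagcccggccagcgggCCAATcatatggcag
Ebp: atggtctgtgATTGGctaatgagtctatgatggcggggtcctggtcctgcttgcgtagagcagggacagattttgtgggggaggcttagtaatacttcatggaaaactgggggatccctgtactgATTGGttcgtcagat
Fasn: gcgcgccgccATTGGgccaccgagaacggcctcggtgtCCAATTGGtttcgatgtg
Hmgcs1: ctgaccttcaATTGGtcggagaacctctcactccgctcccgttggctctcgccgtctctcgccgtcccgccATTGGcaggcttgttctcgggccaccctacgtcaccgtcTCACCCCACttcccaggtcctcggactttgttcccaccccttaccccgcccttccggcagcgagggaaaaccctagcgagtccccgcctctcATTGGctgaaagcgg
The stretch of Mvk lies at chr5:114444086-114444268 on the plus strand and holds 5 boxes. That of Mvd lies at chr8:122443435-122443492 on the minus strand and holds 2, and that of Ebp at chrX:8193553-8193692 on the minus strand also holds 2. The Fasn stretch at chr11:120824592-120824647 on the minus strand holds 3, of which 2 overlap on opposite strands. That of Hmgcs1 lies at chr13:119690104-119690320 on the plus strand and holds 3 boxes with the sterol element 137 to 129 bases before the start. Such matches describe letters and do not show binding, and Hmgcs1, which did not pass the test, holds as many CCAAT boxes as Fasn, which fell.

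All 10 genes from squalene to cholesterol fell in cKO lenses, each with non-overlapping groups. Over all tested genes 15.9% were lower, and 21.2% had non-overlapping groups with cKO below. The summed CPM of the 10 genes was 453 to 472 in cKO and 577 to 597 in wild type. Fdft1 (chromosome 14, 63145150 to 63179578, minus strand), which encodes squalene synthase, the first enzyme committed to sterols, was at 99.1, 90.0 and 91.0 CPM in cKO and 128, 120.2 and 119 CPM in wild type. The log2 fold change of Fdft1 was -0.39 (SE 0.0739, adjusted p = 0.00140). Sqle, squalene epoxidase, was at 96.9, 97.3 and 95.1 CPM against 112, 117 and 109 CPM, the smallest fall of the 23 genes at 14.5%. Lss, which closes the ring system to lanosterol, was at 16.4, 18.9 and 17.5 CPM in cKO and 20.4, 26.9 and 31.6 CPM in wild type. The wild-type spread of Lss was wide, and the log2 fold change was -0.53 (SE 0.132, adjusted p = 0.00736).

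The enzymes that trim lanosterol to cholesterol fell too. Cyp51, the lanosterol demethylase, was at -0.28 on the log2 scale, and the sterol reductase gene Tm7sf2 was at -0.59 (adjusted p = 4.98e-04). Nsdhl and Hsd17b7, which act in removal of the methyl groups at carbon 4, were at -0.47 and -0.58. Ebp, the sterol isomerase, was at -0.36 and Sc5d, the sterol desaturase, at -0.33. Dhcr7 (chromosome 7, 143823145 to 143848410, plus strand), the reductase that completes cholesterol in one branch, was at 30.0, 35.4 and 33.0 CPM in cKO and 43.7, 45.8 and 47.5 CPM in wild type. The highest cKO library of Dhcr7 lay below the lowest wild-type one, and the log2 fold change was -0.47 (SE 0.0847, adjusted p = 9.61e-04).

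Sqle, Cyp51, Sc5d and Ebp did not pass the test in some fits with 1 library fewer, although their log2 fold changes moved little. Sqle did not pass without cKO replicate 3 (-0.21, adjusted p = 0.0966) or wild-type replicate 2 (-0.20, adjusted p = 0.104), and Cyp51 without wild-type replicate 2 (-0.27, adjusted p = 0.0569). Sc5d did not pass without cKO replicate 3 (-0.27, adjusted p = 0.0873). Ebp did not pass without cKO replicate 1 (-0.32, adjusted p = 0.0669), cKO replicate 3 (-0.37, adjusted p = 0.0555), wild-type replicate 1 (-0.33, adjusted p = 0.0583) or wild-type replicate 2 (-0.32, adjusted p = 0.0797). The fall of Sc5d was larger after correction for GC content and length (-0.49). Fdft1 shares 31.6% of its words with other genes, among them the overlapping Ctsb, which had means of 127 and 112 CPM in cKO and wild type, and Tm7sf2 shares 13.1%, among them the overlapping Vps51 at 24.5 and 35.1 CPM.

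**Figure D2:**
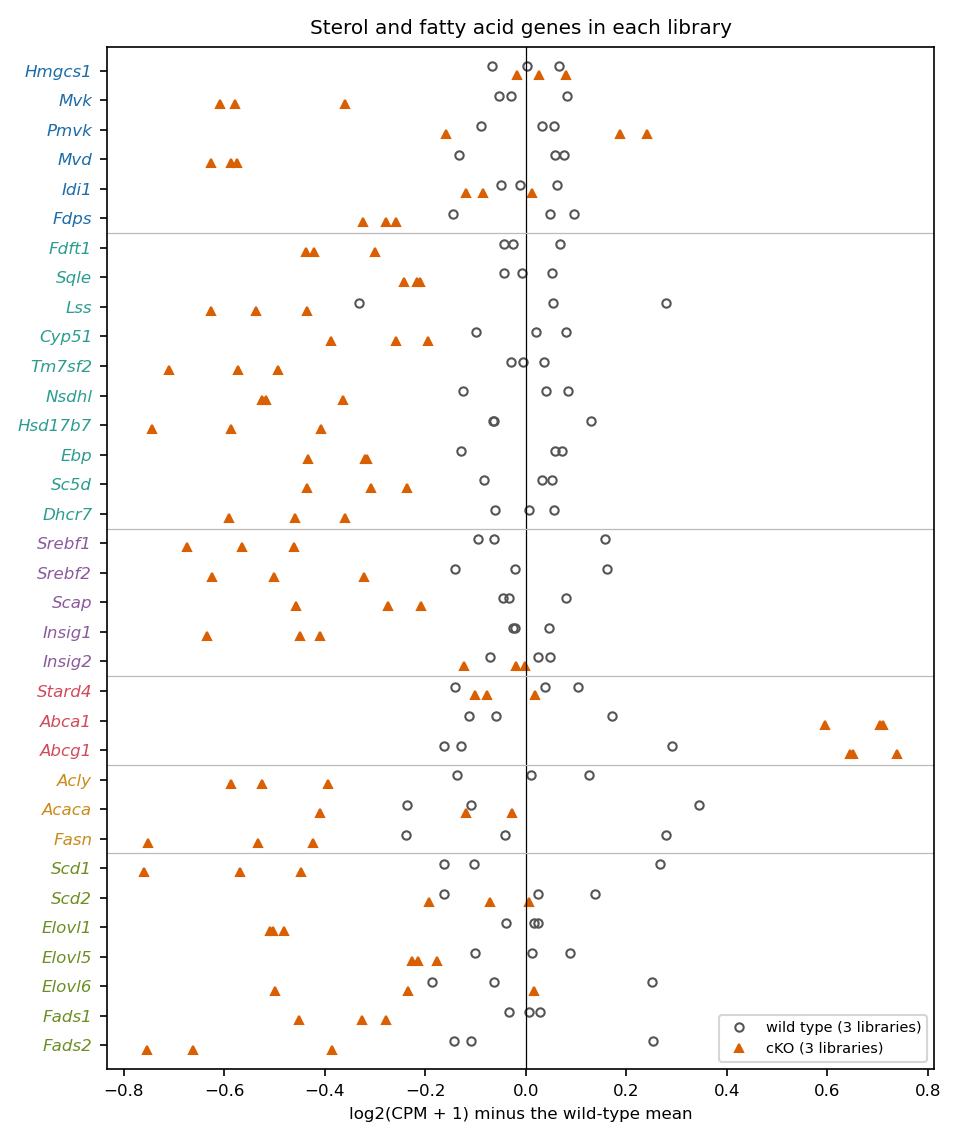
Values of the 34 genes in each library as log2(CPM + 1) minus the wild-type mean of the gene (x axis), in order of role, with gene names coloured by role. Triangles are the 3 cKO libraries and open circles the 3 wild-type libraries: the triangles lie left of all circles for 24 genes, and right of them for Abca1 and Abcg1.

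Of the 5 genes that control SREBP, 4 were lower and Insig2 was not, against 15.9% lower over all tested genes. Srebf2 (chromosome 15, 82147181 to 82205379, plus strand), whose product acts mainly on sterol genes, was at 129.8, 160.3 and 141 CPM in cKO and 182, 198 and 224 CPM in wild type (log2 fold change -0.48, SE 0.0943, adjusted p = 0.00163). Srebf1 (chromosome 11, 60199089 to 60222581, minus strand), whose product acts more on fatty acid genes, was at 49.7, 57.7 and 53.7 CPM against 76.3, 74.7 and 89.2 CPM (log2 fold change -0.57, SE 0.0892, adjusted p = 3.76e-04). Neither gene's groups overlapped. Per gene length (RPKM, CPM per kilobase) the level of Srebf2 was 2.84 ± 0.150 times that of Srebf1 in wild type and 3.02 ± 0.1002 times in cKO (SD, n = 3 each). Insig1, itself a known SREBP target, was at 125, 121 and 107 CPM in cKO and 164, 163 and 172 CPM in wild type (log2 fold change -0.50, adjusted p = 3.37e-04).

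Insig2, the paralog of Insig1 that is controlled in other ways, was at 28.9, 29.3 and 26.8 CPM in cKO and 29.8, 30.3 and 27.8 CPM in wild type. The groups overlapped, with a log2 fold change of -0.05 and an interval of -0.23 to 0.13. The level of Insig1 per gene length was 7.31 ± 0.546 times that of Insig2 in wild type and 5.34 ± 0.219 times in cKO, and the 2 ranges (6.93 to 7.93 and 5.12 to 5.56) did not overlap. Scap was at -0.31 (adjusted p = 0.0132), a call lost after correction for GC content and length (-0.18, adjusted p = 0.0938).

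The sterol efflux genes moved the opposite way. Abca1 (chromosome 4, 53030787 to 53159895, minus strand), which encodes the transporter that loads cholesterol onto apolipoprotein A-I, was at 24.9, 23.0 and 25.0 CPM in cKO and 14.2, 13.7 and 16.9 CPM in wild type. Every cKO library exceeded every wild-type library, with a log2 fold change of 0.67 (SE 0.0994, adjusted p = 2.47e-04). Abcg1 (chromosome 17, 31057675 to 31117988, plus strand), which exports cholesterol to lipoprotein particles, was at 8.98, 8.95 and 9.61 CPM against 4.68, 4.82 and 6.78 CPM. The log2 fold change of Abcg1 was 0.68 (SE 0.135, adjusted p = 0.00183), and wild-type replicate 3 was the highest of its group for both genes. Stard4, which encodes a cytosolic sterol carrier, was at 19.5, 20.9 and 19.2 CPM in cKO and 18.6, 21.2 and 22.2 CPM in wild type, with a log2 fold change of -0.05 and an interval of -0.26 to 0.15.

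Both efflux genes are also known to be expressed in macrophages and endothelial cells, and markers of these cells were higher in the same cKO libraries. The 13 macrophage markers summed to between 28.2 and 38.9 CPM in cKO and between 11.01 and 14.7 CPM in wild type. All 9 of them that passed the filter were called higher, against 20.9% of all tested genes, with a median log2 fold change of 0.86. Tyrobp passed the filter through cKO alone, at 1.14 to 1.43 CPM against 0.0998 to 0.694 CPM in wild type. Cd68, C1qa and C1qb also had wild-type values under 1 CPM, so this count is partly set by the filter. Csf1r, a defining macrophage receptor gene, had means of 5.47 and 2.27 CPM in cKO and wild type, and no macrophage or endothelial marker was at 0 in all libraries of a group. The 14 endothelial markers summed to between 265 and 312 CPM in cKO and between 171 and 205 CPM in wild type. Of these, 10 of 14 were called higher, against 20.9% of all tested genes, with a median log2 fold change of 0.57. Pericyte markers had 4 of 6 higher and 1 lower, and periocular mesenchyme markers 4 of 6 tested higher and 1 lower. The part of these cells in the values of Abca1 and Abcg1 was not tested.

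**Figure D3:**
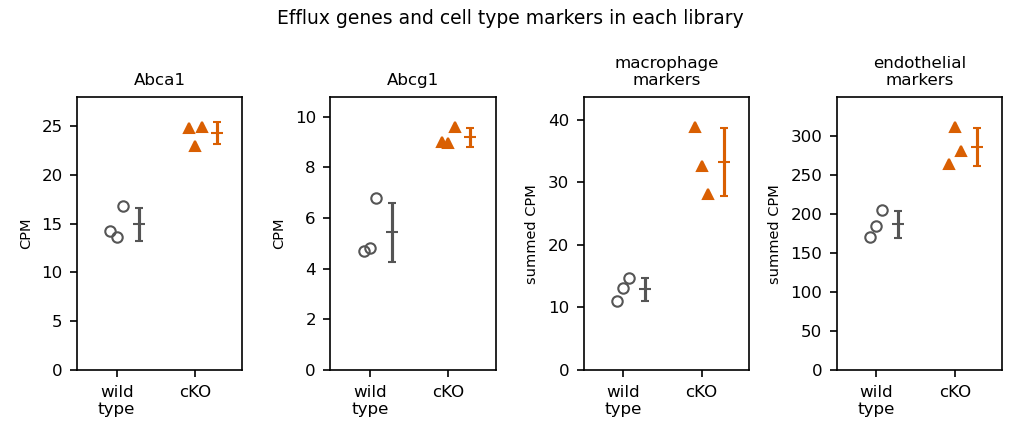
CPM of Abca1 and Abcg1 and summed CPM of 13 macrophage and 14 endothelial markers in each library (y axes, from 0), for wild type (open circles) and cKO (triangles), with the mean ± SD of 3 libraries beside the points. The groups do not overlap in any of the 4 panels.

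Of the 3 genes that make palmitate, Acly and Fasn fell and Acaca did not pass the test. Acly (chromosome 11, 100476353 to 100528000, minus strand), ATP citrate lyase, which supplies cytosolic acetyl-CoA to both pathways, was at 129, 148 and 135 CPM in cKO and 177, 196 and 213 CPM in wild type. The log2 fold change of Acly was -0.50 (SE 0.0836, adjusted p = 5.59e-04). Fasn (chromosome 11, 120805846 to 120824547, minus strand), fatty acid synthase, was at 234, 294 and 273 CPM in cKO and 335, 384 and 479 CPM in wild type. The lowest wild-type library still exceeded the highest cKO library, and the log2 fold change was -0.57 (SE 0.124, adjusted p = 0.00464). Acaca, acetyl-CoA carboxylase, was at 74.5, 97.4 and 91.3 CPM against 84.1, 92.0 and 126 CPM, with overlapping groups. Its log2 fold change was -0.19 with an interval of -0.51 to 0.14, and 33.3% of its words also occur in other genes. The value of Acaca turned on single libraries: leaving out cKO replicate 1 gave -0.07, leaving out wild-type replicate 3 gave -0.01 and leaving out wild-type replicate 1 gave -0.30.

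Among the 7 desaturase and elongase genes 4 fell, against 15.9% of all tested genes, and the most abundant one did not. Scd2 (chromosome 19, 44293674 to 44306864, plus strand), a stearoyl-CoA desaturase, was at 1978, 2272 and 2152 CPM in cKO and 2020, 2300.3 and 2488 CPM in wild type. The ranges overlapped, and the log2 fold change was -0.09 with an interval of -0.28 to 0.10. Its paralog Scd1 (chromosome 19, 44394455 to 44407879, minus strand) was at 4.59, 5.94 and 5.37 CPM in cKO and 7.80, 7.45 and 10.4 CPM in wild type. Scd1 fell by 0.59 on the log2 scale (adjusted p = 0.00530), a mean 38.0% below wild type and the largest fall of the 23 genes by that measure. Per gene length the level of Scd2 was 239 ± 31.6 times that of Scd1 in wild type and 359 ± 21.5 times in cKO. The reads of Scd1 are few beside those of Scd2, and 7.95% of its words occur in other genes, Scd2 and Scd3 among them, so its value is less certain.

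Fads1 and Fads2, the desaturases of polyunsaturated fatty acids, both fell. Fads2 was at 30.7, 39.9 and 32.8 CPM in cKO and 48.6, 47.4 and 62.8 CPM in wild type (log2 fold change -0.60, SE 0.119, adjusted p = 0.00189), and Fads1 was at -0.35 (adjusted p = 0.00220). Elovl1, an elongase of very long saturated chains, varied little within groups, with 17.97, 17.9 and 18.3 CPM against 26.2, 25.2 and 26.3 CPM (log2 fold change -0.50, adjusted p = 5.81e-04). Elovl5, an elongase of polyunsaturated chains, had non-overlapping groups (20.5 to 21.2 and 22.5 to 25.7 CPM) but did not pass the test (-0.21, adjusted p = 0.0816). It did pass with TMM scaling (0.0398), RLE scaling (0.0372), the GC and length correction (0.0142) or edgeR (0.0370). Elovl6, which elongates palmitate, was at -0.24 (adjusted p = 0.194), and passed with DESeq2 (0.0486), with the replicate number as a block (0.0221) or without cKO replicate 2 (-0.37, adjusted p = 0.0470). Its value was nearer 0 without cKO replicate 1 (-0.11, adjusted p = 0.529) or wild-type replicate 3 (-0.11, adjusted p = 0.502).

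**Figure D4:**
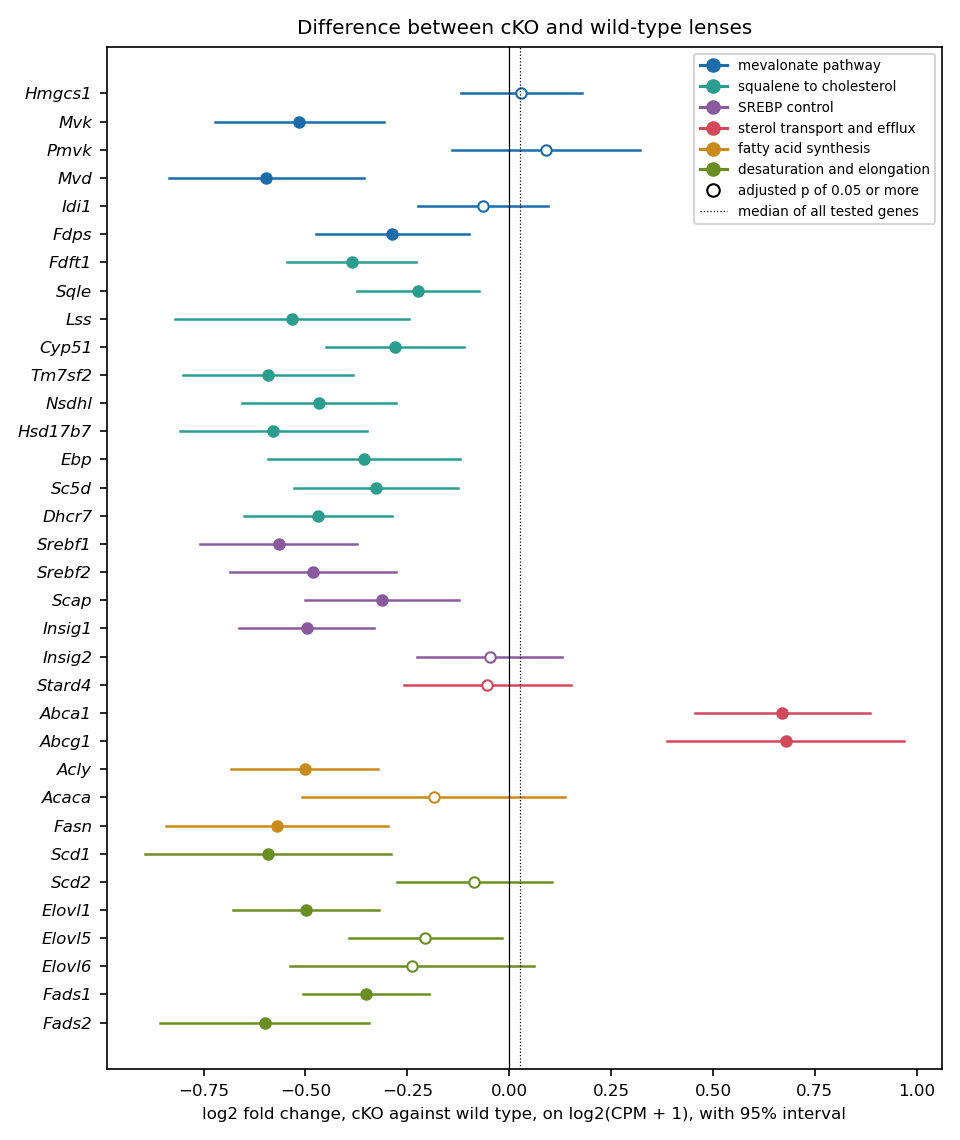
Log2 fold change of the 34 genes, cKO against wild type, on the log2(CPM + 1) scale (x axis), with the 95% interval from limma, coloured by role. Filled circles had an adjusted p under 0.05, open circles did not, the solid line marks 0 and the dotted line the median of all tested genes (0.03); the interval of Elovl5 excludes 0 because intervals are not adjusted for the number of genes.

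Per gene length, the 34 genes covered a wide range in wild-type lenses, from 416 ± 43.2 RPKM for Scd2 down to 1.34 ± 0.289 RPKM for Abcg1 (SD, n = 3). Hmgcs1 followed Scd2 at 86.9 ± 4.01 RPKM, then Insig1 at 61.6 ± 1.74 and Fads1 at 52.0 ± 1.14 RPKM. Fdft1, Fasn, Srebf2 and Cyp51 came next at 42.8, 40.5, 40.3 and 39.2 RPKM, and the spread of these neighbours overlaps. Sterol enzymes were present at unequal levels, with Lss at 2.44 ± 0.524 RPKM, although this rests on a listed gene length of 10.8 kb. At the bottom Scd1 (1.77 ± 0.330), Abca1 (1.44 ± 0.164) and Abcg1 could not be ordered beyond their spread. The 2 most abundant genes, Scd2 and Hmgcs1, were both among the 9 that did not pass the test.

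**Figure D5:**
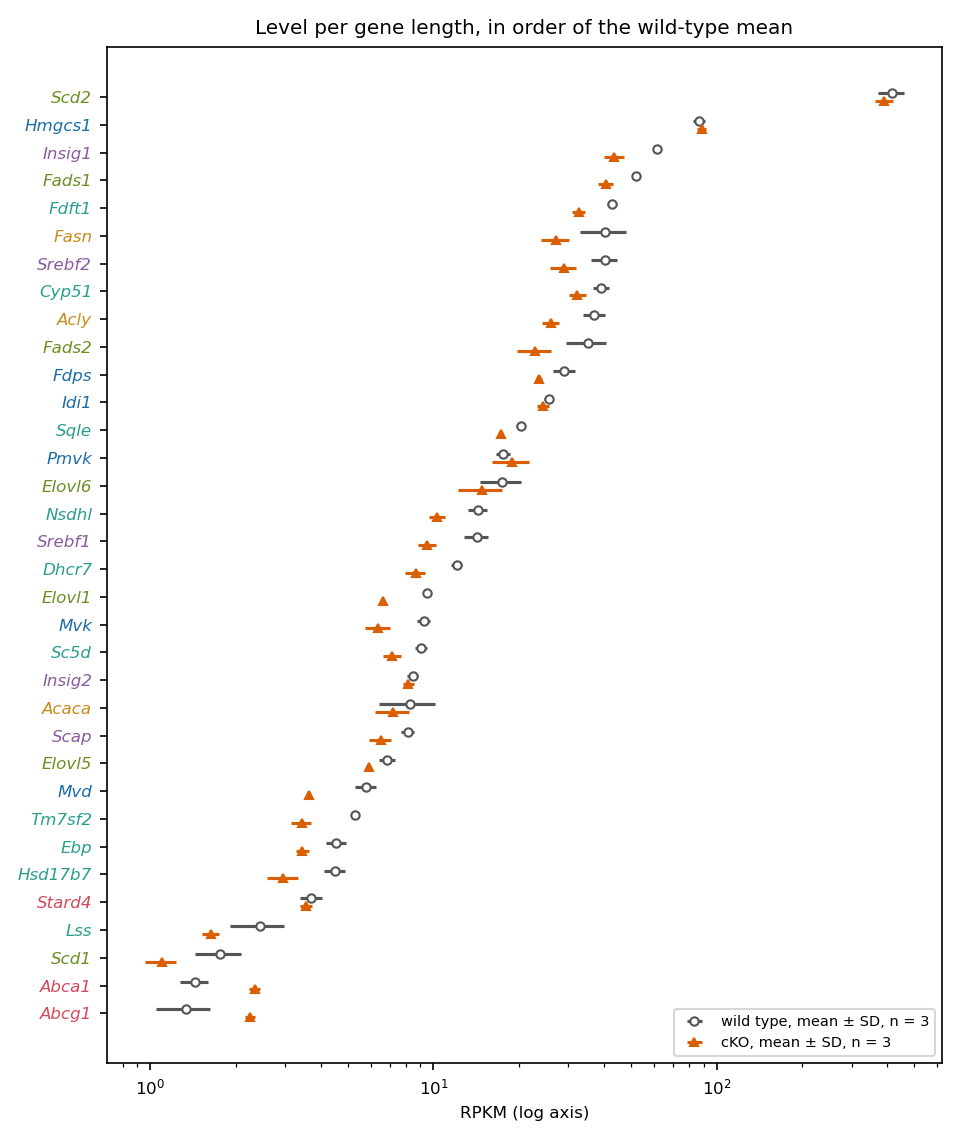
Level of each gene per gene length in RPKM (x axis, log scale), as mean ± SD of 3 wild-type (open circles) and 3 cKO (triangles) libraries, in order of the wild-type mean, with names coloured by role. Scd2 stands apart at 416 RPKM in wild type, and Abca1 and Abcg1, at the bottom, are the genes whose triangles lie clearly to the right.

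Libraries of a group ranked alike for many of the 34 genes, in shares that differed from those of genes at large. Wild-type replicate 3 was the highest of its group for 24 of the 34 genes and cKO replicate 2 for 25, while wild-type replicate 1 was the lowest for 17 and cKO replicate 1 for 18. Over all tested genes the same libraries were the highest for 44.5% and 59.3%, and the lowest for 39.6% and 57.2%. Wild-type replicate 3 and cKO replicate 2 were thus highest for a larger share of the 34 genes than of all tested genes. Wild-type replicate 1 was also lowest for a larger share, and cKO replicate 1 for a smaller one. For 11 genes, wild-type replicates 1 and 3 and cKO replicates 1 and 2 were the lowest and highest of their groups at the same time. Fasn is one of them, and its wild-type range of 335 to 479 CPM was wide beside the difference between the groups. The TMM scaling factors, a measure of how composition shifts CPM, of replicates 1, 2 and 3 were 0.964, 1.06 and 1.00 for cKO and 0.980, 0.980 and 1.01 for wild type. Leaving out cKO replicate 3 or wild-type replicate 2 lowered the number of lower genes from 23 to 19. Lower calls over all tested genes also fell, from 1904 to 1334 without cKO replicate 3 and 1482 without wild-type replicate 2. The 2 higher genes were called under every alternative run.

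A further 70 genes of the same pathways were listed by role, of which 61 passed the filter, 4 were higher and 17 lower. The lower share was 27.9%, against 15.9% of all tested genes, and the median log2 fold change was -0.10. Without cKO replicate 1, cKO replicate 3 or wild-type replicate 3 the lower count was 11. Lower calls over all tested genes were 1438, 1334 and 1601 in these fits, against 1904 with all libraries. Of 12 further sterol and isoprenoid enzymes 5 were lower (41.7%) and 1 higher. Aacs, which makes acetoacetyl-CoA for lipid synthesis, was at 20.8 ± 0.830 CPM in cKO and at 31.0 ± 0.0412 CPM in wild type (SD, n = 3 each), a log2 fold change of -0.56 (limma adjusted p = 2.27e-04). Cyb5b, a cytochrome b5, was at -0.63 and Msmo1, a sterol methyl oxidase gene of the same segment as Nsdhl, at -0.32. Nus1, a subunit of the enzyme that makes dolichol precursors from farnesyl pyrophosphate, rose by 0.48, or 0.32 after correction for GC content and length.

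Of 15 tested genes of SREBP processing and sterol sensing 3 were lower and 0 higher, a lower share of 20.0% that is near the 15.9% of all tested genes. Mbtps1, the site-1 protease that cuts SREBP, was at 95.03, 121 and 112 CPM in cKO and 138, 142 and 157 CPM in wild type (log2 fold change -0.41, adjusted p = 0.00354), with non-overlapping groups. Mbtps2, the protease of the second cut, was at 0.18 (adjusted p = 0.0976). Nfya, a subunit of NF-Y, fell by 0.39, while Nfyb and Nfyc did not pass the test (0.19 and -0.15). Nr1h2, which encodes a liver X receptor, fell by 0.35 (adjusted p = 0.00761), and did not pass without cKO replicate 3 (0.0553). The other receptor gene, Nr1h3, did not pass the filter, with means of 0.637 and 0.553 CPM in cKO and wild type.

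Of 14 tested genes of sterol transport and storage 2 were higher (14.3%) and 3 lower (21.4%). These shares are near the 20.9% higher and 15.9% lower of all tested genes. Soat1, the enzyme that esterifies cholesterol for storage, was at 37.4, 39.0 and 37.1 CPM in cKO and 24.8, 23.8 and 25.4 CPM in wild type. Its groups were far apart beside their spread, with a log2 fold change of 0.60 (SE 0.0790, adjusted p = 1.02e-04). Lipa, the lysosomal lipase that frees cholesterol from its esters, rose by 0.42 (adjusted p = 0.0141), but did not pass when cKO replicate 3 (0.0629) or wild-type replicate 1 (0.0548) was left out, or after correction for GC content and length (0.24). Like Abca1, both are known to be expressed in macrophages, whose markers were higher in the same libraries as given above, and the part of these cells in both values was not tested. Scarb1 (-0.26, adjusted p = 0.0467) lost its call without any 1 of the 6 libraries, and Abca2 (-0.26, adjusted p = 0.0438) without cKO replicate 1 (0.151), cKO replicate 3 (0.0766), wild-type replicate 2 (0.121) or wild-type replicate 3 (0.145). Abca2 also did not pass with no filter (0.0820), and its value was -0.12 after the GC and length correction (adjusted p = 0.221). The lysosomal cholesterol carriers Npc1 (-0.04) and Npc2 (0.06) did not pass the test.

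Of 20 tested further fatty acid enzymes 6 were lower (30.0%) and 1 higher (5%), against 15.9% and 20.9% of all tested genes. Slc25a1, the mitochondrial citrate carrier that feeds Acly, was at 21.9, 23.2 and 20.0 CPM in cKO and 37.2, 34.3 and 31.0 CPM in wild type (log2 fold change -0.63, SE 0.0940, adjusted p = 2.48e-04). Me1, malic enzyme, a source of NADPH for lipid synthesis, was at 33.3, 27.5 and 33.0 CPM against 44.7, 49.7 and 50.6 CPM (log2 fold change -0.62, adjusted p = 2.88e-04). No cKO library of either gene reached the wild-type range. Tecr, the last reductase of chain elongation, was at -0.28 (adjusted p = 0.00651). Acsl3, an acyl-CoA synthetase gene, was at 0.28 (adjusted p = 0.0113), a call lost after correction for GC content and length (0.14).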

How the data were processed

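Poly(A) RNA was made into libraries with TruSeq RNA v2, a kit that does not mark strand, and read single-end, per the labels' protocols. The submitters' processing notes name GRCm38 and edgeR. Aligner, counter and annotation: not given in the sources used here. Each library's deposited file lists CPM, scaled by the authors to the library total over the listed features. It also lists the authors' RPKM, which is that CPM divided by gene length, per the file headers. Every CPM value lay within 0.05 reads of a whole multiple of 1 read (100% of values in each library), so reads were recovered and used only for alternatives and depth. The recovered totals set the precision: 1 read was worth 0.0356 to 0.0998 CPM.

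Because the deposited unit is CPM, limma 3.58.1 was the main test (R 4.3.3): limma-trend with robust moderation on log2(CPM + 1), group as the only term, on genes reaching 1 CPM in 3 or more libraries, with Benjamini-Hochberg adjustment over all 11941 genes tested and a threshold of 0.05. Fold changes on that scale understate the change of low genes. Replicates are pools called biological replicates in the labels. On simulated counts of this comparison (11941 genes) the test recovered 89% of 100 genes changed 1.5-fold and 100% of 100 changed 2-fold, and 8 of 197 calls were false. Alternatives were TMM and RLE scaling, a pseudocount of 0.1, no filter, a mean of at least 5 CPM, the replicate number as a block, edgeR 4.0.16 and DESeq2 1.42.0 on recovered reads, a smooth correction for GC content and length (mgcv 1.9.3), and leaving out each library.

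Of the listed features 38391 carried Ensembl identifiers and 37667 of these matched GENCODE M21 (GRCm38), from which coordinates were taken. Features without an identifier held 0.192% to 0.208% of reads. Shared sequence is the share of a gene's 32-base transcript words also found in another gene. Promoter windows are from RefSeq. Fads1, Scd1, Stard4, Scd2, Fdft1, Sqle, Abcg1 and Fdps had no entry. The 34 genes, the further lists and the markers were chosen with earlier results of these data known. The text names all 34 genes, Itgb1, up to 4 called genes of each further list by adjusted p, and a few other genes picked with their values known. Sequences were to be shown only for genes that passed the test, and Hmgcs1 is an exception to that rule. Values of 1 gene of the further lists are not reported here.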

Additional observations from a re-analysis of the deposited data

How the results depend on the processing

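The 34 genes gave 510 values under 15 alternatives, and 487 kept both direction and side of the threshold, while 12 lost a call, 8 gained one and 3 turned in sign. Of the 25 called genes 19 kept their call under every alternative, and none turned in sign. The 3 sign changes were all of Hmgcs1, whose main value was 0.03: it was -1.23e-04 with RLE scaling, -0.12 with the GC and length correction and -0.00461 without wild-type replicate 1, within a range of -0.00461 to 0.0618 when each library was left out. Without each single library in turn, 19 to 24 of the 34 genes were lower and 2 were higher. Of the further lipid genes 11 to 16 were lower and 3 to 5 higher. Over all tested genes 1334 to 1934 were lower and 1819 to 2403 higher in the same fits. With the other alternatives 23 or 24 of the 34 were lower. The split of all tested genes moved from 2499 higher and 1904 lower to 2378 and 2387 with edgeR, 2407 and 2375 with RLE scaling and 1967 and 2066 with DESeq2; the cause was not tested. The median log2 fold change of all genes was 0.03 without scaling and 0.00 with TMM scaling. With the replicate number as a block, 24 of the 34 genes were lower and 2 higher. The labels do not say that a number marks shared material, and same-numbered libraries deviated with correlations of 0.327, -0.034 and 0.147, so the libraries were not treated as pairs. Depth limits genes near 1 CPM, and none of the 34 was that low.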

Other observations

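Fabp5, which encodes a fatty acid binding protein, had means of 48.6 ± 14.5 and 59.8 ± 9.01 CPM in cKO and wild type (SD, n = 3 each; adjusted p = 0.268 by limma). Its processed pseudogene Gm6166, which holds 7.12% of the 32-base words of Fabp5, had means of 9.14 and 0.0292 CPM in cKO and wild type. The part of reads that match both genes, and the part of the strain difference in these values were not tested.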
